A study of Rattus norvegicus with 60 samples.

Results

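The acute phase genes Lcn2, Orm1, Hp, Lbp, Cp and Ptx3 are described here in rat lung, as the rows of the gene count table whose symbol equals one of these names. They are 6 of the 30045 rows and 6 of the 15995 genes that passed a filter on low counts, so every one of them entered the tests. Messenger RNA was sequenced from lungs of male Fischer 344 rats aged 3 months. Exposed rats inhaled multi-walled carbon nanotubes (abbreviated MWCNT, rolled carbon sheets in fibre form) in whole-body chambers for 6 hours a day over 3 days, and control rats breathed filtered air in the same way. Lungs were taken 1 day after the last exposure. There were 5 runs, each with its own cumulative dose of 11.25, 22.5, 45, 90 or 180 mg/m3 and its own air rats, and each group began with 6 rats. A run is named here by its dose, and because each dose was given in a single run, dose and run cannot be told apart. Of 60 libraries, 7 that the labels mark as outliers were set aside. This left 3 air rats in the 45 mg/m3 run, 4 exposed rats in the 90 mg/m3 run, 5 exposed rats in the 11.25 and 180 mg/m3 runs and 6 rats in each other group. Replicate numbers were given in accession order and only name a library.

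Acute phase proteins are plasma proteins whose output changes with injury or infection. The liver is their main source, where interleukin-6, oncostatin M and related cytokines act through STAT3, and interleukin-1 and tumour necrosis factor act through NF-kB and C/EBP factors. Several are also made outside the liver, including in airway and alveolar epithelium, macrophages and stromal cells. Lcn2 is a lipocalin that withholds iron from bacteria by binding their siderophores, and Orm1 is a lipocalin-fold plasma glycoprotein that carries small lipophilic molecules. Lbp passes lipopolysaccharide to CD14 and the receptor TLR4, and Ptx3 is a long pentraxin that binds microbes and complement C1q. Hp captures free haemoglobin for uptake through CD163, and Cp is a copper-carrying ferroxidase.

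Promoter sequences, from 250 bases before to 50 bases after the transcription start, were held for 4 of the 6 genes in a RefSeq table of build GRCr8, namely Lcn2, Orm1, Cp and Ptx3, and not matched for Hp and Lbp. Letters of 4 motifs tied to acute phase induction were searched on both strands. The C/EBP letters TTNNGCAA occurred in all 4 promoters and in 10.6% of the 33469 promoters in the table. The windows around them are shown because this was the one motif that the 4 genes shared, with the match in capitals and each sequence 5′ to 3′ on the strand of its gene.
Orm1, chr5:81788371-81788408, plus strand: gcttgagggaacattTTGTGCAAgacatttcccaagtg
Cp, chr2:104368583-104368620, plus strand: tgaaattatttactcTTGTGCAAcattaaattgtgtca
Ptx3, chr2:152797478-152797515, plus strand: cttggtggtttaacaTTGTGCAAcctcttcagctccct
Lcn2, chr3:36081949-36081986, minus strand: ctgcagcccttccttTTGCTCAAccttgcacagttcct

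In Orm1, Cp and Ptx3 the 8 letters were the same, TTGTGCAA, and lay on the strand of the gene. A search made after these matches were seen found TTGTGCAA in 0.82% of all promoters of this length. The match lay 72 to 65 bases before the start in Cp and 70 to 63 bases before it in Ptx3. In Orm1 it lay 123 to 116 bases before the start. In Lcn2 the motif read TTGAGCAA on the opposite strand, 191 to 184 bases before the start, and these letters occurred in 0.86% of promoters. Letters of the NF-kB motif, found in 5.4% of promoters, occurred in the 2 lipocalin genes on the opposite strand, and those windows are shown because both genes had the largest changes in level described further on.
Lcn2, chr3:36081998-36082030, minus strand: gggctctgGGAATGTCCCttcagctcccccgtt
Orm1, chr5:81788334-81788373, plus strand: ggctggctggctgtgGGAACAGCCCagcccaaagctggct

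The Lcn2 match lay 242 to 233 and the Orm1 match 160 to 151 bases before the start. The interleukin-6 response element core CTGGGAA, found in 11.3% of promoters, occurred only in Lcn2 among the 4 and overlapped its NF-kB letters. The STAT letters TTCNNNGAA occurred in none of the 4 windows and in 8.9% of promoters. A match is a description of letters and not a binding site.

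**Figure D1:**
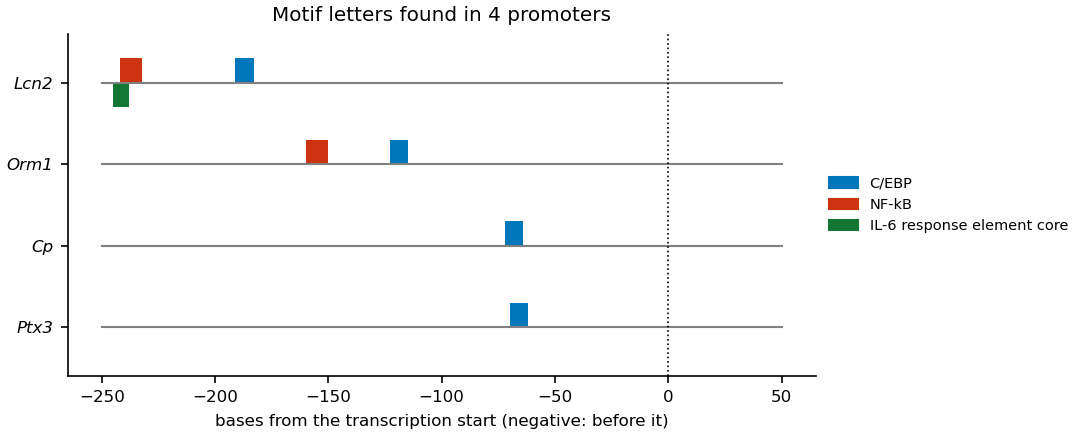
Position of the motif letters in the promoters of Lcn2, Orm1, Cp and Ptx3, in bases from the transcription start (horizontal axis, negative before the start), with one line per gene and blocks coloured by motif. The C/EBP blocks of Cp and Ptx3 sit within 72 bases of the start, and the NF-kB blocks occur in Lcn2 and Orm1.

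Total counts in the 53 analysed libraries ran from 8.10 to 16.2, with a median of 11.2, in units of 1e+06 counts. Levels are given as counts per 1e+06 counts of the library (CPM), which is not corrected for gene length, so levels are not compared between genes. Alveolar type 2 cell markers summed to between 21063 and 32757 CPM in every analysed library, so the labelled tissue was checked by its surfactant genes. The 22 liver markers held at most 0.0525% of an analysed library. In 3 of the libraries labelled as outliers, 1 from air in the 45 mg/m3 run and 2 exposed in the 90 mg/m3 run, liver markers held 20.6% to 22.8% of the counts. P-values set a difference against the spread between libraries within the groups. Each dose had a single run, so they hold no variation between repeats of a run. In whole lung, fewer cells of a type and less RNA per cell cannot be told apart.

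At least 5 of the 6 genes were higher in exposed lungs from 22.5 mg/m3 upward, and all 6 were at the 2 highest doses. Exposed and air rats were compared within each run by edgeR's quasi-likelihood test with Benjamini-Hochberg adjustment over all 15995 genes, and a gene was called at an adjusted p under 0.05. At 11.25 mg/m3, 0 of 6 genes were called higher, where 0.025% of all genes were. At 22.5 mg/m3, 5 of 6 rose against 5.18% of all genes, the exception being Cp. At 45 mg/m3, 5 of 6 rose against 3.32%, the exception being Ptx3. All 6 rose at 90 mg/m3, against 6.82% of all genes, and all 6 rose at 180 mg/m3, against 12% of all genes. No fitted change of the 6 genes was below 0 in any run. The median log2 fold change of the 6 genes was 0.34, 0.88, 0.66, 0.96 and 1.26 from the lowest to the highest dose, and the median over all genes tested lay between -0.0066 and 0.0065. Lcn2, Orm1, Hp and Lbp were each called higher in 4 runs, as were 335 genes or 2.09% of those tested, and Cp and Ptx3 in 3 runs, as were 1.84%.

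Separation of single libraries gave a similar order. Every exposed library lay above every air library of its run for all 6 genes at 90 and at 180 mg/m3, where 8.82% and 7.8% of all genes did so. Among rats of the 45 mg/m3 run, this held for Lcn2, Orm1, Hp and Lbp, with 9.23% of all genes. Among rats of the 22.5 mg/m3 run, it held for Lcn2 and Lbp, with 2.15%, and at 11.25 mg/m3 for Hp alone, with 0.35%.

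**Figure D2:**
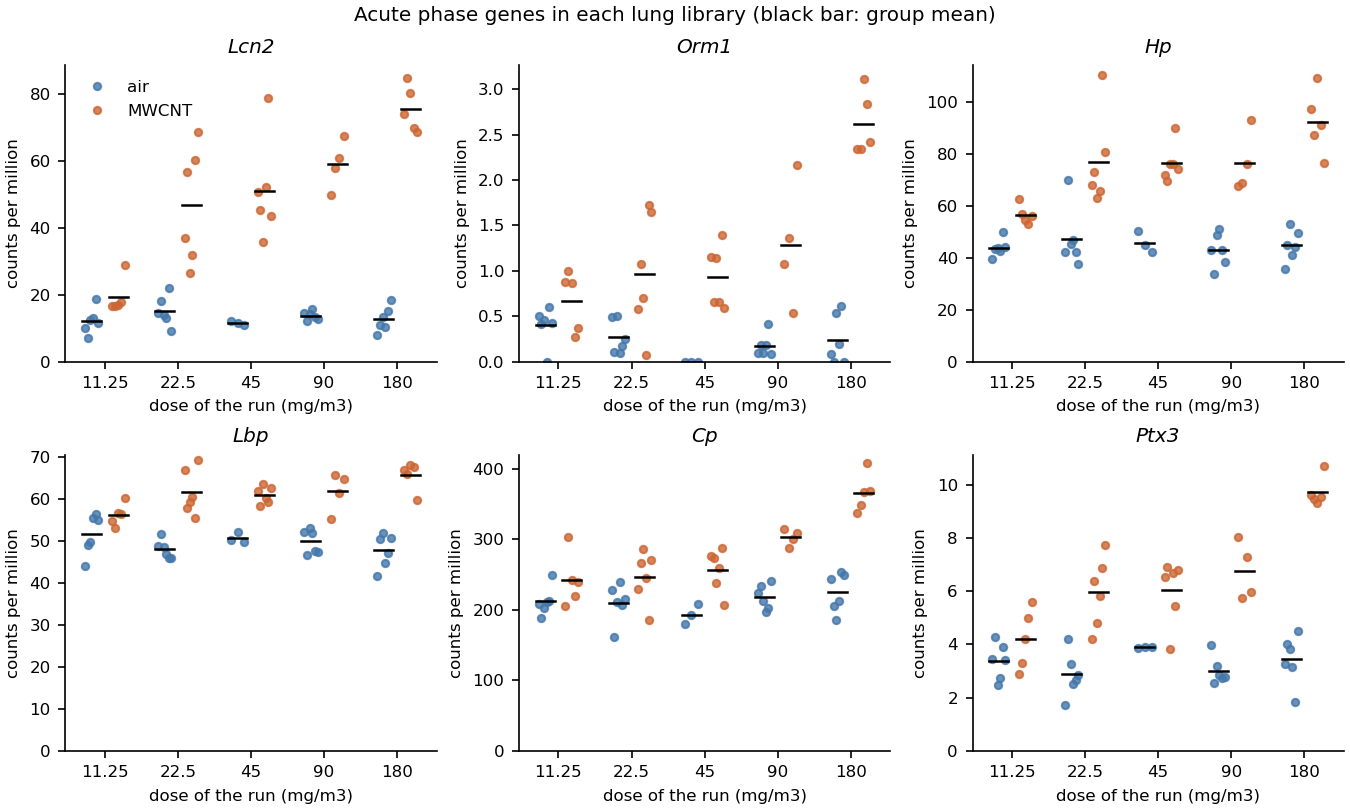
Level of each gene in every analysed library (vertical axis, CPM, linear from 0) by the dose of the run (horizontal axis, mg/m3), with air rats in blue, exposed rats in orange and a black bar at each group mean. At 90 and 180 mg/m3 the exposed points lie above all air points of the run in all 6 panels, and the air points stay in a similar range across runs.

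Lcn2, the siderophore-binding lipocalin, changed in every run from 22.5 mg/m3 upward. In the 180 mg/m3 run the air libraries held 8.03 CPM at the lowest, 12.0 at the median and 18.5 at the highest, and the exposed libraries held 74, 84.6, 80.3, 69.7 and 68.7 CPM. The lowest exposed lung was thus well above the highest air lung. The means were 12.7 ± 3.78 CPM (SD, n = 6) in air and 75.4 ± 6.86 CPM (SD, n = 5) in exposed rats, which was 5.93-fold higher, with a log2 fold change of 2.57 ± 0.23 (SE; edgeR adjusted p = 2.4e-12). At 90 mg/m3 the air libraries ran from 12.1 through a median of 13.8 to 15.6 CPM, against 49.7, 57.9, 60.6 and 67.4 CPM in the exposed, again without overlap, and the log2 fold change was 2.06 ± 0.23 (SE; edgeR adjusted p = 5.6e-09).

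In the 45 mg/m3 run the 3 air libraries held 12.0, 11.5 and 11.0 CPM of Lcn2, and the exposed ran from 35.7 through a median of 47.9 to 78.7 CPM. This was a log2 fold change of 2.12 ± 0.28 (SE; edgeR adjusted p = 1.4e-06). In the 22.5 mg/m3 run air ran from 9.21 through 14.3 to 21.9 CPM and the exposed from 26.5 through 46.7 to 68.6 CPM, for 1.62 ± 0.21 (SE; edgeR adjusted p = 3.1e-07). The SD among exposed rats was 17.2 CPM there, 14.8 CPM at 45 mg/m3 and 7.30 CPM at 90 mg/m3. At the lowest dose, 11.25 mg/m3, air ran from 6.97 through 11.9 to 18.7 CPM, and the exposed libraries held 16.6, 16.5, 16.8, 17.8 and 28.9 CPM. All 5 exposed values lay above the air mean of 12.1 CPM and 1 lay above the highest air value, and the log2 fold change of 0.69 ± 0.24 (SE) did not pass (edgeR adjusted p = 0.98).

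Orm1, the acid glycoprotein, had the largest fold change of the 6 at 180 mg/m3 and rested on few reads. Air libraries of that run held 0 to 6 counts (0 CPM at the lowest, 0.136 at the median and 0.611 at the highest), and the exposed held 19 to 30 counts, at 2.35, 2.34, 3.11, 2.84 and 2.42 CPM. The groups did not overlap. The means were 0.237 ± 0.271 CPM (SD, n = 6) and 2.61 ± 0.346 CPM (SD, n = 5), and the fitted rise was 11.0-fold (log2 fold change 3.46 ± 0.51, SE; edgeR adjusted p = 5.6e-07). One dose lower, at 90 mg/m3, air ran from 0.0866 through 0.139 to 0.416 CPM against 1.07, 1.37, 0.530 and 2.17 CPM in the exposed, for a log2 fold change of 2.67 ± 0.59 (SE; edgeR adjusted p = 0.0012).

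In the 45 mg/m3 run the 3 air libraries held no Orm1 count, and the 6 exposed libraries held 77 counts together. The exposed libraries ran from 0.585 through a median of 0.902 to 1.39 CPM. Taking 3 counts over the air group as the limit that a count of 0 allows, 0.0816 CPM, Orm1 was at least 11.6-fold higher in the exposed group (edgeR adjusted p = 0.00075). This limit covers counting error in these 3 libraries only, not the spread between rats. Pooled over each of the other air groups, Orm1 stood between 0.182 and 0.409 CPM, against 0.946 CPM in these exposed rats. Air replicate 3 of the 45 mg/m3 run, set aside as an outlier, held 0.385 CPM. At 22.5 mg/m3 the groups overlapped, because one exposed library held 0.0744 CPM, a single count, below the air range of 0.0897 through 0.207 to 0.497 CPM. The other exposed libraries reached up to 1.72 CPM, and the log2 fold change was 1.81 ± 0.52 (SE; edgeR adjusted p = 0.022). That call ended with limma voom (log2 fold change 0.80, adjusted p = 0.49) and when any of 4 single libraries was left out, namely air replicate 4 or 5 or exposed replicate 5 or 6 (edgeR adjusted p between 0.051 and 0.090). In the 11.25 mg/m3 run air ran from 0 through 0.444 to 0.601 CPM and the exposed held 0.871, 0.994, 0.860, 0.267 and 0.367 CPM, a difference of 0.71 ± 0.54 on the log2 scale (SE; edgeR adjusted p = 1.0) with overlapping groups.

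Lbp, the lipopolysaccharide carrier, had the smallest change at 180 mg/m3 and a narrow spread. Air libraries of that run held 41.7 at the lowest, 48.7 at the median and 51.8 CPM at the highest, and the exposed held 66.8, 65.8, 68.1, 67.4 and 59.7 CPM. The groups did not overlap, and the means of 47.7 ± 3.95 CPM (SD, n = 6) and 65.5 ± 3.38 CPM (SD, n = 5) differed 1.37-fold (log2 fold change 0.45 ± 0.06, SE; edgeR adjusted p = 5.1e-08). In the 90 mg/m3 run air ran from 46.7 through 49.8 to 53.1 CPM and the exposed held 55.3, 65.7, 61.4 and 64.7 CPM, for 0.28 ± 0.06 (SE; edgeR adjusted p = 0.0016). At 45 mg/m3 the air libraries held 50.3, 52.1 and 49.8 CPM and the exposed ran from 58.4 through 61 to 63.5 CPM, for 0.24 ± 0.07 (SE; edgeR adjusted p = 0.032). Every exposed library was above every air library there. Among rats of the 22.5 mg/m3 run, air ran from 45.9 through 47.7 to 51.7 CPM and the exposed from 55.4 through 59.8 to 69.1 CPM, for 0.35 ± 0.06 (SE; edgeR adjusted p = 1.6e-05). At 11.25 mg/m3 the exposed values of 54.8, 53, 56.6, 56.3 and 60.05 CPM fell within or just above the air range of 43.9 through 52.4 to 56.5 CPM, and 0.13 ± 0.06 (SE) did not pass (edgeR adjusted p = 1.0), although with the air rats of all runs as the control it did (0.19, edgeR adjusted p = 0.034).

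Ptx3, the long pentraxin, was tightly grouped at the top dose. Air libraries of the 180 mg/m3 run held 1.83 at the lowest, 3.56 at the median and 4.51 CPM at the highest, and the exposed held 9.63, 9.47, 9.32, 9.53 and 10.7 CPM. The exposed lungs were all above the air lungs, with means of 9.73 ± 0.549 CPM (SD, n = 5) and 3.44 ± 0.931 CPM (SD, n = 6), 2.80-fold higher at a log2 fold change of 1.48 ± 0.18 (SE; edgeR adjusted p = 5.6e-09). At 90 mg/m3 air ran from 2.54 through 2.82 to 3.98 CPM and the exposed held 8.02, 5.73, 7.29 and 5.98 CPM, for 1.14 ± 0.19 (SE; edgeR adjusted p = 2.4e-05).

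Among rats of the 45 mg/m3 run, the 3 air libraries agreed closely for Ptx3, at 3.88, 3.90 and 3.89 CPM. The exposed ran from 3.81 through 6.6 to 6.91 CPM, and 1 of the 6, replicate 3, lay at the air level. The log2 fold change of 0.60 ± 0.21 (SE) did not pass (edgeR adjusted p = 0.087), and it passed without that library (edgeR adjusted p = 0.039) and with limma voom (adjusted p = 0.038). With the air rats of all runs as the control it was 0.86 (edgeR adjusted p = 9.5e-07). In the 22.5 mg/m3 run air ran from 1.72 through 2.76 to 4.22 CPM and the exposed from 4.21 through 6.09 to 7.74 CPM, with the highest air and lowest exposed library almost equal, for 1.06 ± 0.18 (SE; edgeR adjusted p = 2.7e-05). At the lowest dose, 11.25 mg/m3, the exposed values of 2.88, 3.31, 4.2, 4.98 and 5.59 CPM overlapped the air range of 2.48 through 3.45 to 4.26 CPM, for 0.31 ± 0.19 (SE; edgeR adjusted p = 1.0).

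Hp, the haemoglobin scavenger, reached a 2.05-fold rise at 180 mg/m3. Air libraries held 35.7 at the lowest, 44.4 at the median and 52.9 CPM at the highest, and the exposed held 97.3, 87.3, 108.9, 91.0 and 76.2 CPM, with no overlap. The means were 44.7 ± 6.09 CPM (SD, n = 6) and 92.1 ± 12.1 CPM (SD, n = 5), for a log2 fold change of 1.04 ± 0.13 (SE; edgeR adjusted p = 2.1e-08). One dose lower, at 90 mg/m3, air ran from 33.7 through 42.8 to 51.1 CPM and the exposed held 67.5, 68.5, 76.2 and 93.0 CPM, for 0.79 ± 0.14 (SE; edgeR adjusted p = 3.9e-05). In the 45 mg/m3 run the air libraries held 50.04, 44.7 and 42.2 CPM and the exposed ran from 69.6 through 75.1 to 89.8 CPM, for 0.71 ± 0.16 (SE; edgeR adjusted p = 0.0025).

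At 22.5 mg/m3 Hp overlapped through one air library at 69.8 CPM, while the other air libraries lay between 37.7 and 46.7 CPM. The exposed ran from 63 through 70.4 to 110 CPM, for 0.69 ± 0.12 (SE; edgeR adjusted p = 9.9e-05). With that run fitted alone, the same log2 fold change of 0.69 no longer passed (edgeR adjusted p = 0.054). In the 11.25 mg/m3 run the exposed held 62.4, 56.6, 54.5, 52.7 and 56.1 CPM against 39.5 through 43.4 to 49.9 CPM in air. Hp was the one gene of the 6 whose groups did not overlap at this dose, and its log2 fold change of 0.38 ± 0.13 (SE) did not pass over all genes (edgeR adjusted p = 1.0), although it did with that run fitted alone (0.37, edgeR adjusted p = 0.041).

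Cp, the ferroxidase, was called from 45 mg/m3 upward. At 180 mg/m3 air libraries held 185 at the lowest, 228 at the median and 253 CPM at the highest, and the exposed held 337, 349, 367, 408 and 368 CPM, without overlap. The means were 225 ± 27.8 CPM (SD, n = 6) and 366 ± 26.8 CPM (SD, n = 5), 1.62-fold higher at a log2 fold change of 0.69 ± 0.09 (SE; edgeR adjusted p = 8.2e-08). In the 90 mg/m3 run air ran from 196 through 218 to 241 CPM and the exposed held 314, 287, 299.9 and 309 CPM, for 0.44 ± 0.10 (SE; edgeR adjusted p = 0.0015).

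At 45 mg/m3 the air libraries held 180, 192 and 208 CPM of Cp and the exposed ran from 207 through 266 to 287 CPM, so that 1 exposed library lay at the top of the air range. The log2 fold change was 0.38 ± 0.11 (SE; edgeR adjusted p = 0.032). The calls of Cp and Lbp in that run both ended when any 1 of its 3 air libraries was left out (edgeR adjusted p between 0.058 and 0.16 for Cp and between 0.073 and 0.15 for Lbp). Leaving out exposed replicate 1, 2 or 5 also ended the call of Cp, and leaving out exposed replicate 3 or 6 that of Lbp. Among rats of the 22.5 mg/m3 run, air ran from 161.8 through 213 to 239 CPM and the exposed from 185 through 256 to 286 CPM, overlapping widely, for 0.22 ± 0.09 (SE; edgeR adjusted p = 0.14). Against the air rats of all runs that difference was 0.20 and passed (edgeR adjusted p = 0.034). At 11.25 mg/m3 the exposed held 205, 303, 242, 220 and 239 CPM against 188 through 209 to 250 CPM in air, for 0.20 ± 0.09 (SE; edgeR adjusted p = 1.0).

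The count of 0 called genes at 11.25 mg/m3 does not show that their levels were unaffected there. With edgeR, 4 of the 6 genes (Lcn2, Hp, Lbp and Cp) had an unadjusted p under 0.05 in that run. The share of all genes under that unadjusted threshold was not taken, so no result is drawn from this count. DESeq2 and limma voom also called 0 of the 6 genes there.

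Fitted as a straight line over doublings of dose, the exposure effect had a called slope above 0 for every one of the 6 genes. The same edgeR test called such a slope for 5.58% of all genes. The effects did not rise at each doubling. At 22.5, 45 and 90 mg/m3 they were 0.35, 0.24 and 0.28 for Lbp and 1.06, 0.60 and 1.14 for Ptx3. Each dose was a single run, so a slope over dose cannot be told apart from differences among runs. The change in log2 fold change per doubling was 0.63 ± 0.18 for Orm1 (SE; edgeR adjusted p = 0.013), 0.42 ± 0.07 for Lcn2 (SE; edgeR adjusted p = 6.0e-05) and 0.24 ± 0.06 for Ptx3 (SE; edgeR adjusted p = 0.0037). Hp had 0.14 ± 0.04 (SE; edgeR adjusted p = 0.019) and Cp had 0.12 ± 0.03 (SE; edgeR adjusted p = 0.0045). Lbp had the shallowest slope, 0.06 ± 0.02 (SE; edgeR adjusted p = 0.043). Without the 5 libraries of highest albumin mRNA, the slope was called for 3 of the 6, and Hp (edgeR adjusted p = 0.057), Lbp (edgeR adjusted p = 0.20) and Ptx3 (edgeR adjusted p = 0.052) were lost. The slope of Lbp also ended with no filter on low counts (edgeR adjusted p = 0.070), and, at an edgeR adjusted p of 0.050 to 0.085, when any 1 of 16 libraries was left out. These were air replicates 4, 5 and 6 and exposed replicates 1 and 3 at 11.25 mg/m3, exposed replicates 2 and 3 at 22.5 mg/m3, air replicate 6 and exposed replicates 2 and 3 at 90 mg/m3, and air replicates 1 and 4 and exposed replicates 2, 3, 4 and 5 at 180 mg/m3.

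Any difference of the effect among the 5 runs was called for Lcn2 (edgeR adjusted p = 0.0013), Ptx3 (edgeR adjusted p = 0.015) and Orm1 (edgeR adjusted p = 0.035), where 4.92% of all genes were called. Cp (edgeR adjusted p = 0.058), Lbp (edgeR adjusted p = 0.098) and Hp (edgeR adjusted p = 0.18) did not pass. Of 9 other settings 5 called Cp, namely limma voom (adjusted p = 0.0017), DESeq2 (adjusted p = 0.022), the filter at 1 CPM in 10 libraries (edgeR adjusted p = 0.045), the fit without the 5 libraries of highest Alb (edgeR adjusted p = 0.028) and the fit without the 45 mg/m3 run (edgeR adjusted p = 0.028). Limma voom also called Hp (adjusted p = 0.0047) and Lbp (adjusted p = 0.021). Without the 45 mg/m3 run, whose air libraries held no Orm1 count, the adjusted p of Orm1 was 0.089 by edgeR, and with the liver trace subtracted it was 0.068. It lay between 0.051 and 0.068 by edgeR when any 1 of 12 libraries was left out, namely air replicates 1, 2, 3, 5 and 6 and exposed replicates 5 and 6 at 11.25 mg/m3, any air library at 45 mg/m3, and air replicates 1 and 4 at 180 mg/m3. Cp also passed without any 1 of 9 libraries (edgeR adjusted p between 0.014 and 0.048), which were air replicate 2 and exposed replicate 3 at 11.25 mg/m3, air replicate 2 and exposed replicates 3 and 6 at 22.5 mg/m3, air replicate 4 and exposed replicate 6 at 45 mg/m3, and air replicates 5 and 6 at 180 mg/m3. Lbp passed without air replicate 1 at 11.25 mg/m3 (edgeR adjusted p = 0.025). Ptx3 did not pass without the 5 libraries of highest Alb (edgeR adjusted p = 0.17). Between neighbouring doses 0 of 24 differences in effect passed by edgeR, DESeq2 or limma voom. DESeq2 gave no adjusted p for Orm1 between 11.25 and 22.5 mg/m3. By edgeR 5 of 24 had an unadjusted p under 0.05, a threshold for which the share of all genes was not taken. The largest neighbouring difference of Lcn2 was between 11.25 and 22.5 mg/m3, at 0.93 ± 0.32 on the log2 scale (SE; edgeR adjusted p = 0.20). Across all genes 0.781% passed for that step and 0% for each of the 3 higher steps. Between 90 and 180 mg/m3 the effect on Lcn2 differed by 0.50, with a 95% interval from -0.15 to 1.16, and 0 lies within that interval.

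In air alone the 6 genes were not called different among the 5 runs (0 of 6 by edgeR, adjusted p between 0.11 and 0.92, against 7.11% of all genes). DESeq2 and limma voom called 0 as well, but DESeq2 gave no adjusted p for Orm1 in that comparison. By edgeR Orm1 had an unadjusted p under 0.05 there, the only one of the 6. Mean air levels of Lcn2 lay between 11.5 and 15.2 CPM over the runs and those of Hp between 43.0 and 47.3 CPM.

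**Figure D3:**
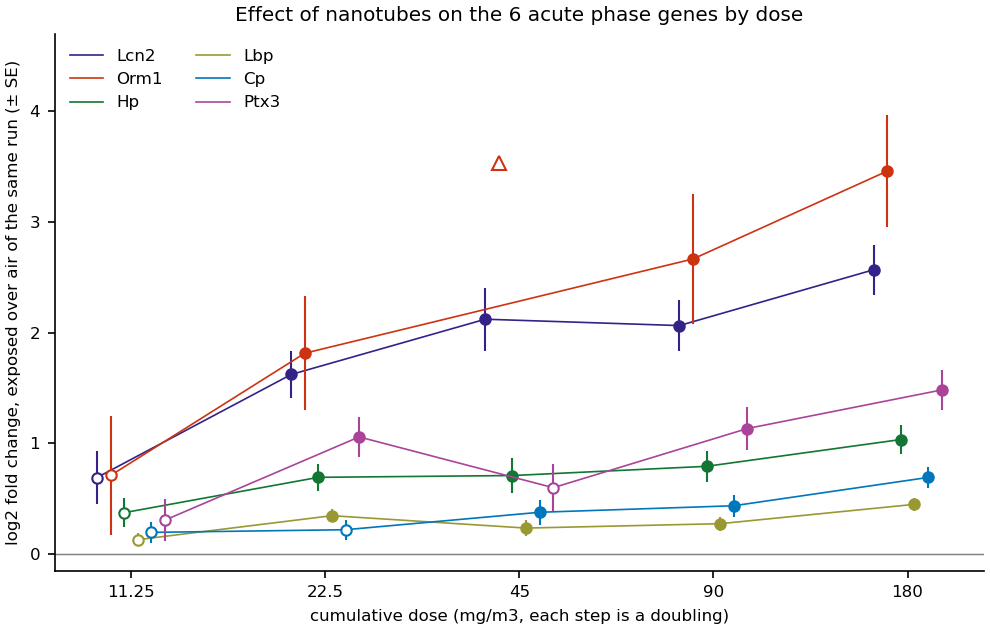
Log2 fold change of exposed over air rats of the same run, with its SE (vertical axis), against cumulative dose on a doubling scale (horizontal axis), one line per gene, filled points where the adjusted p was under 0.05. Orm1 and Lcn2 reach 3.46 and 2.57 at 180 mg/m3 and Lbp 0.45, and the open triangle marks the lower bound of Orm1 at 45 mg/m3, which has no error bar. The triangle is open because it is a bound, and Orm1 was called there (edgeR adjusted p = 0.00075).

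Albumin mRNA (Alb), a liver transcript, was set beside each gene because the liver is the main source of several of these proteins. In the 3 libraries with a liver profile, Hp averaged 13050 CPM, Cp 2057 CPM, Orm1 721 CPM and Lbp 98.1 CPM, whereas Lcn2 had 0.206 CPM and Ptx3 0.105 CPM. These libraries ran from 9547 to 16732 CPM for Hp, 693 to 2910 CPM for Cp and 591 to 865 CPM for Orm1. The air library among them had the lowest Hp, Orm1 and Lbp and the highest Cp. Their mean was used for air and exposed rats alike, so the shares below are rough. Alb ran from 1.17 to 146.5 CPM in the analysed libraries and was not called different between exposed and air rats in any run. At 180 mg/m3 its means were 31.4 ± 56.5 CPM (SD, n = 6) in air and 34.9 ± 31.8 CPM (SD, n = 5) in exposed rats (log2 fold change 0.15 ± 0.80, SE; edgeR adjusted p = 0.93).

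If all Alb came with liver RNA of that profile, the trace would give under 0.0014% of the mean level of Lcn2 and of Ptx3 in any group, at most 0.0914% of Lbp and at most 0.445% of Cp. For Hp it would give 1.02% to 12.1%, and at 180 mg/m3 it would give 7.50% in air and 4.04% in exposed rats. For Orm1 the share in air rats was 78.2% at 180 mg/m3, 61.1% at 90 mg/m3, 28.2% at 22.5 mg/m3 and 57.2% at 11.25 mg/m3, and the air libraries at 45 mg/m3 held no count. In exposed rats it was 7.88% at 180 mg/m3, 20.1% at 90 mg/m3, 11.2% at 45 mg/m3, 4.46% at 22.5 mg/m3 and 56.1% at 11.25 mg/m3. The trace would thus give more of the low Orm1 level in air and at the lowest dose than of the level in exposed rats from 22.5 mg/m3 upward. With the expected liver counts subtracted from every gene, the numbers of called genes per run stayed at 0, 5, 5, 6 and 6. Orm1 at 180 mg/m3 then had a log2 fold change of 4.57. Counts below 0 were set to 0, and the air libraries of that run held 0 to 6 Orm1 counts before the subtraction. That fold change thus stands against few or no counts in air, and its size is uncertain.

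The 4 remaining libraries with an outlier label bear on Orm1 and Hp. Air replicate 6 of the 45 mg/m3 run held 2241 CPM of Alb with 13.1 CPM of Orm1 and 214 CPM of Hp, and exposed replicate 2 of the 11.25 mg/m3 run and replicate 1 of the 180 mg/m3 run held 1427 and 827 CPM of Alb. Air replicate 3 of the 45 mg/m3 run held 6.55 CPM of Alb. With these 4 put back, 57 libraries in all, Orm1 and Hp turned to log2 fold changes of -1.68 and -0.21 at 45 mg/m3, neither of them called, and 2 of the 6 genes were called in that run. At 22.5 mg/m3 Orm1 (edgeR adjusted p = 0.35) and Hp (edgeR adjusted p = 0.14) were lost, as they were at 90 mg/m3 (edgeR adjusted p = 0.14 and 0.086) and for the dose slope. None of the 4 libraries belongs to the 22.5 or 90 mg/m3 run, whose own counts were unchanged, and the fit shares its spread estimate over all runs. Over all alternatives, this one included, the log2 fold change of Hp was 0.65 to 0.77 at 22.5 mg/m3 and 0.69 to 0.82 at 90 mg/m3. All 6 were still called at 180 mg/m3.

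**Figure D4:**
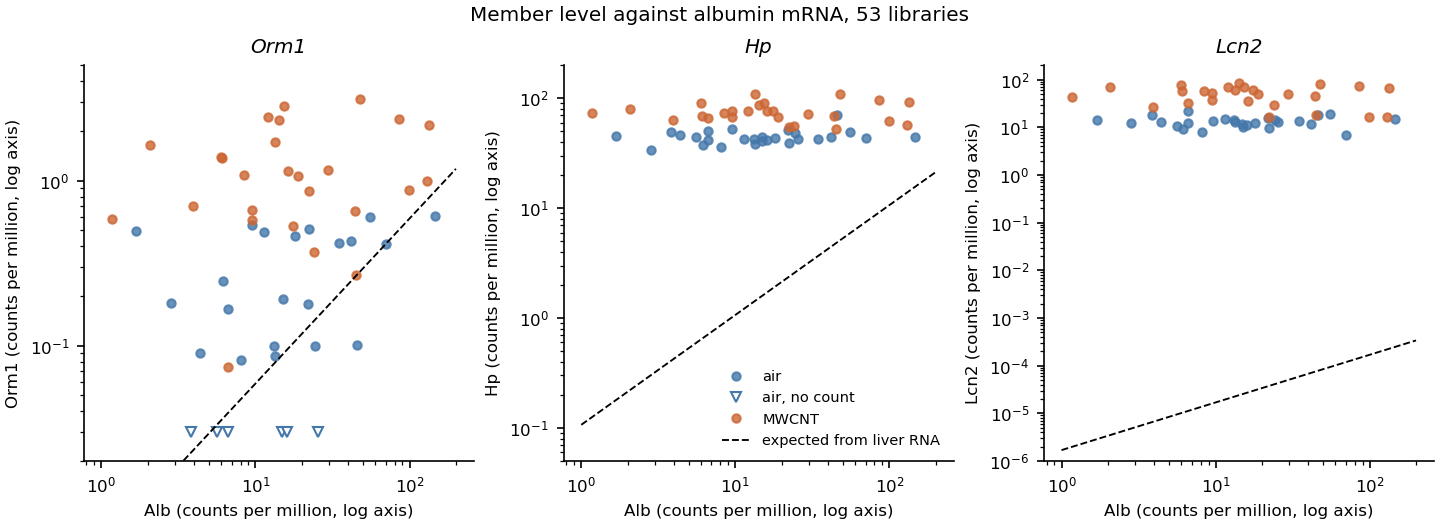
Level of Orm1, Hp and Lcn2 (vertical axes, CPM, log scale) against albumin mRNA (horizontal axis, CPM, log scale) in 53 libraries, air in blue and exposed in orange, with libraries without an Orm1 count as open triangles at the foot. The dashed line is the level expected from liver RNA: air points of Orm1 lie on both sides of it, Hp lies above it and Lcn2 far above it.

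Within the exposed groups some libraries were highest for several of the genes, and others were highest for some and lowest for others. Replicate 5 was highest of 6 for Lcn2, Orm1, Hp and Cp at 45 mg/m3, with an Alb level of 5.96 CPM. Replicate 6 was highest for Lcn2, Lbp and Ptx3 both at 22.5 and at 11.25 mg/m3. At 90 mg/m3 replicate 4 was highest for Lcn2, Orm1 and Hp and had 133 CPM of Alb, and at 180 mg/m3 replicate 4 was highest for Orm1, Hp and Lbp and lowest for Ptx3, with 47.8 CPM. Replicate 6 at 180 mg/m3 was highest for Ptx3 and lowest for Lcn2, Hp and Lbp. Replicate 5 at 22.5 mg/m3 was highest for Orm1 and Hp and lowest for Lbp and Cp, and replicate 1 at 90 mg/m3 was highest for Cp and Ptx3 and lowest for Lcn2, Hp and Lbp.

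The genes most like each member were found by Pearson correlation of log2 CPM, after subtracting the air mean of the run, over the 53 libraries and the 14727 genes whose mean reached 1 CPM. These libraries share the dose groups, so the values are a description. Lcn2 was closest to C3 (r = 0.97), the central complement component, Noxo1 (r = 0.97), an organiser subunit of NADPH oxidase, and Chi3l1 (r = 0.97), a chitinase-like protein. Hp was closest to Chi3l1 (r = 0.94), the epithelial transcription factor Elf3 (r = 0.93) and Retnla (r = 0.93), a resistin-like protein. Lbp and Ptx3 also had Elf3 first (r = 0.91 and r = 0.89), followed by the ion channel Trpv2 (r = 0.90) for Lbp and the chemokine Ccl2 (r = 0.89) for Ptx3, with Chi3l1 next in both. Cp differed in its neighbours, which were the complement genes C7 (r = 0.89), C1r (r = 0.89) and C1s (r = 0.88). Orm1 was closest to Lcn2 (r = 0.84), C3 (r = 0.84) and Tmem154 (r = 0.83).

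Cytokines that induce these proteins moved in part. Counts for this and the following lists at 180 mg/m3 stand against 12% of all genes called higher and 10.9% called lower. Of 6 cytokines tested, 4 rose and 0 fell, with a median log2 fold change of 0.66 against -0.0066 over all genes. Osm, which encodes oncostatin M, rose by 1.18 ± 0.22 (SE; edgeR adjusted p = 4.0e-05), from 3.01 ± 0.675 CPM (SD, n = 6) to 6.91 ± 1.46 CPM (SD, n = 5). Lif, a cytokine of the same family, rose by 1.02 ± 0.28 and Il1b, the inflammasome product interleukin-1 beta, by 1.01 ± 0.16, whereas Il1a rose by 0.30 ± 0.11. Il6 and Tnf did not pass the filter on low counts. The air libraries of the 180 mg/m3 run held 0 to 3 counts of Il6 and the exposed 3 to 10, and Tnf had 0 to 5 and 3 to 7 counts. From the lowest dose to 90 mg/m3, 0, 1, 0 and 3 of the 6 cytokines were called higher, against 0.025%, 5.18%, 3.32% and 6.82% of all genes.

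Of 11 cytokine receptor genes, 5 rose and 2 fell at 180 mg/m3, with a median of 0.21. Osmr, the oncostatin M receptor, rose by 0.94 ± 0.09 (SE; edgeR adjusted p = 1.8e-11), its shared subunit Il6st by 0.26 ± 0.07 and Il1r1, the interleukin-1 receptor, by 0.23 ± 0.06. The interleukin-6 receptor Il6r had 87.95 ± 7.10 CPM (SD, n = 6) in air and 88.4 ± 4.48 CPM (SD, n = 5) in exposed rats and was not called. Of 18 signalling and transcription factor genes, 8 rose and 2 fell, with a median of 0.10. Those that rose were led by Socs3, the feedback inhibitor of STAT3 signalling (0.93 ± 0.15), Bcl3 (0.93 ± 0.12) and Nfkbiz (0.64 ± 0.10), both nuclear IkB proteins, and Nfkb2 (0.36 ± 0.07). Stat3 itself rose by 0.30 ± 0.06 (SE; edgeR adjusted p = 5.5e-05). The C/EBP genes Cebpb and Cebpd had values of -0.09 ± 0.18 and -0.20 ± 0.30 and were not called.

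Among 17 binding partners and receptors of the 6 proteins, 7 rose and 1 fell at 180 mg/m3, with a median of 0.27. Cd14, which takes lipopolysaccharide from Lbp, rose by 0.78 ± 0.08 (SE; edgeR adjusted p = 3.3e-10), while the rest of that receptor complex, Tlr4 (0.27 ± 0.11, edgeR adjusted p = 0.053) and Ly96 (0.10 ± 0.13), was not called. The C1q chains that bind Ptx3 rose, C1qb by 0.82 ± 0.10 and C1qa by 0.75 ± 0.11, and Tnfaip6, another Ptx3 partner, had 0.69 ± 0.28 and was not called (edgeR adjusted p = 0.075). Itgam, the integrin alpha chain of myeloid cells, had the largest rise of the list, 1.30 ± 0.12. Cd163, the haptoglobin-haemoglobin receptor, had -0.01 ± 0.22. For Lcn2, the receptor Slc22a17 had -0.11 ± 0.06 and the protease partner Mmp9 had 0.24 ± 0.16, neither of them called. Heph, a membrane ferroxidase and homologue of Cp, fell by 0.32 on the log2 scale (SE 0.08; edgeR adjusted p = 0.0016), and the iron exporter Slc40a1 had -0.32 ± 0.20 and was not called.

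In the wider iron list 6 of 15 genes rose and 2 fell at 180 mg/m3, with a median of 0.08. The ferrireductase Steap3 (0.91 ± 0.14), the iron importer Slc11a2 (0.61 ± 0.06), the transferrin receptor Tfrc (0.61 ± 0.08) and the haem-degrading enzyme Hmox1 (0.59 ± 0.12) led the rises.

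Other positive acute phase genes rose in part, and no negative one fell. Of 28 tested, 10 rose and 0 fell at 180 mg/m3, with a median of 0.46. The largest changes were in Serpina3n, a protease inhibitor (2.16 ± 0.28), the metallothionein Mt2A (2.03 ± 0.25), Kng1, a kininogen (1.75 ± 0.18), and C3 (1.57 ± 0.11). Serpina3n and Kng1 belong to families with close copies in rat, between which reads may be split, so their values are uncertain. Hpx, the haem carrier that works beside Hp, rose by 0.88 ± 0.18 (SE; edgeR adjusted p = 0.00022). Saa4 had 0.91 ± 0.36 (edgeR adjusted p = 0.061), Serpina1 had -0.30 ± 0.23, Fgb, a fibrinogen chain, had -0.16 ± 0.84 and Hamp, which encodes hepcidin, had -0.33 ± 0.79, none of them called. A2m, a classic rat acute phase gene of liver, had no count in the exposed libraries of the 180 mg/m3 run and at most 1 in an air library. Of 8 negative acute phase genes 1 was called, and it was higher: Tf, which encodes transferrin, rose by 0.56 ± 0.10 (SE; edgeR adjusted p = 1.9e-05).

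C3, the gene closest to Lcn2 in pattern, had log2 fold changes of 0.35 ± 0.11, 0.92 ± 0.10, 1.15 ± 0.13, 1.18 ± 0.11 and 1.57 ± 0.11 from the lowest to the highest dose. Across the runs, 0, 5, 4, 10 and 10 of the 28 other positive acute phase genes were called higher. Of all genes, 0.025%, 5.18%, 3.32%, 6.82% and 12% were called higher in the same runs.

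**Figure D5:**
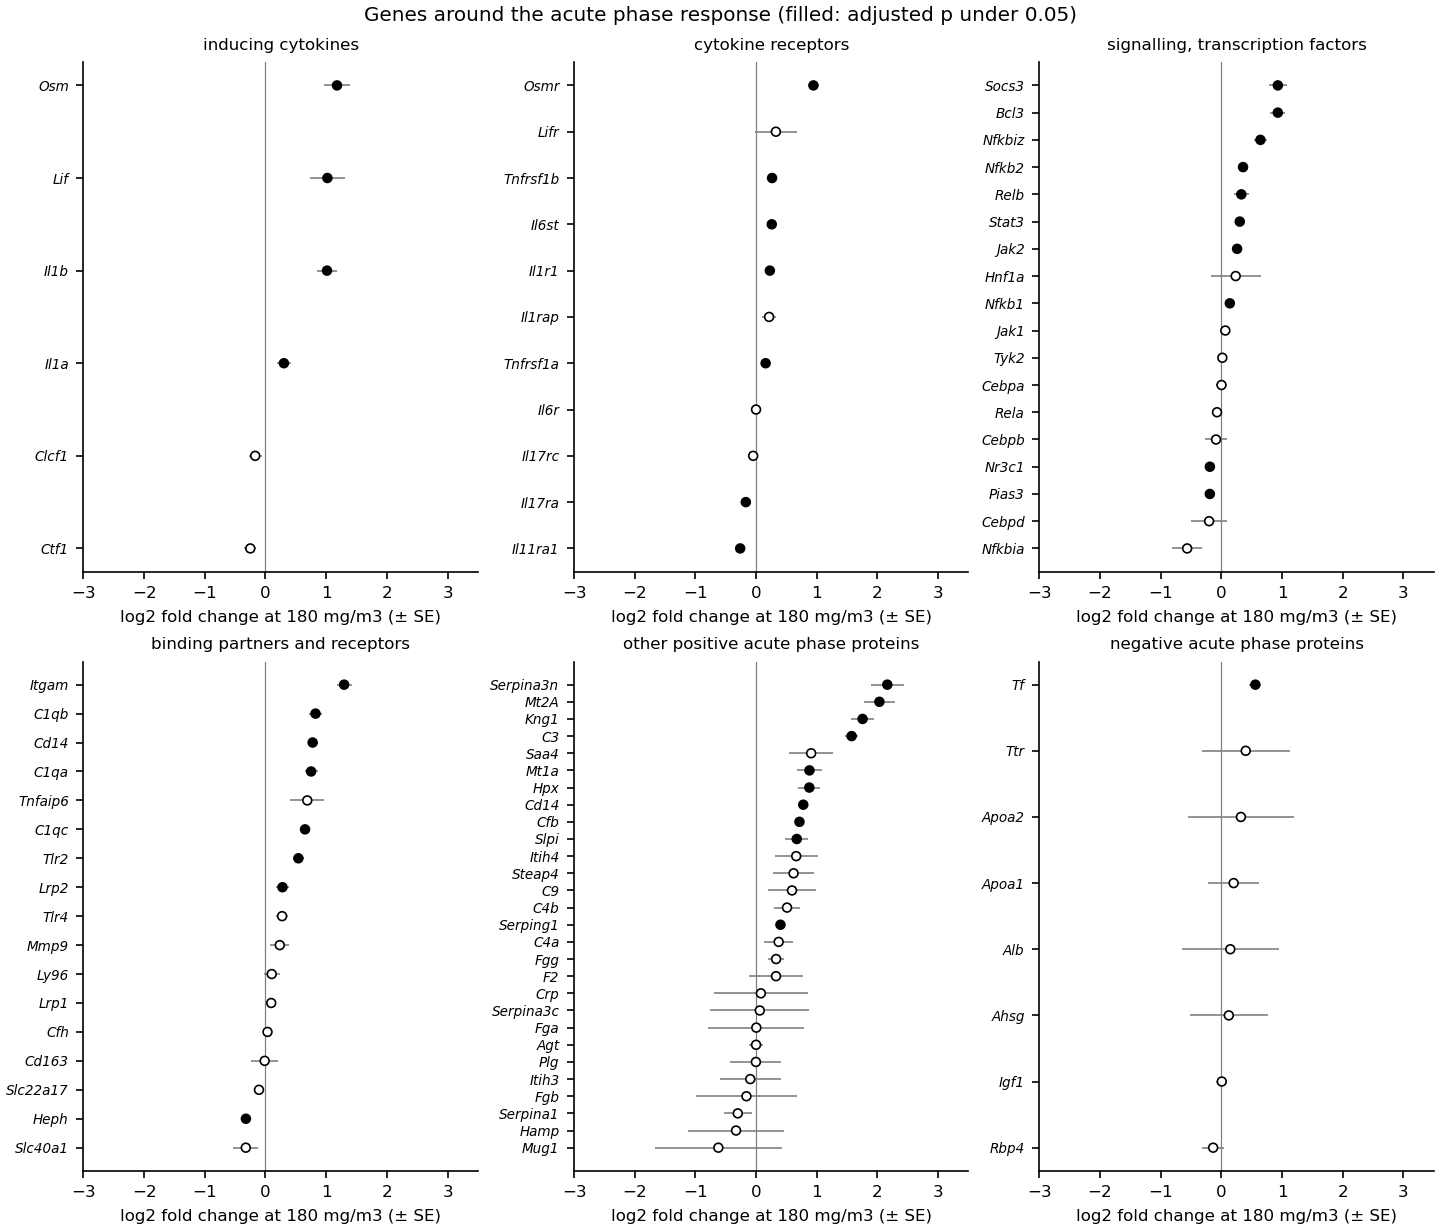
Log2 fold change of exposed over air rats at 180 mg/m3 with its SE (horizontal axes) for each tested gene of 6 lists (one panel per list, one row per gene), filled where the adjusted p was under 0.05. Osm, Osmr, Socs3, Itgam and Serpina3n stand at the right of their panels, and Tf is the only filled point among the negative acute phase genes.

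Markers of several cell types differed between the groups at 180 mg/m3, beside the 6 genes, where 12% of all genes were called higher and 10.9% lower. Neutrophil markers, 7 of 11 tested higher and 0 lower, summed to between 178 and 277 CPM in air and between 316 and 416 CPM in exposed rats. Among them S100a9 rose by 1.06 ± 0.16 and the decoy receptor Il1r2 by 2.0 ± 0.20, and no listed neutrophil marker was at 0 in either group. Their sums were 155 to 258 CPM in air and 275 to 319 CPM in exposed rats at 90 mg/m3, 186 to 205 and 233 to 293 CPM at 45 mg/m3, 164 to 219 and 222 to 326 CPM at 22.5 mg/m3, and 153 to 239 and 179 to 251 CPM at 11.25 mg/m3, where alone they overlapped. Ltf was at 0 in the air libraries of the 45 mg/m3 run. Alveolar type 2 markers, 4 of 10 higher and 0 lower, summed to 23475 to 30113 CPM in air and 30887 to 32757 CPM in exposed rats. Club and goblet cell markers, 4 of 10 higher and 2 lower, summed to 4812 to 7748 CPM and 3492 to 4394 CPM, and the list had a median log2 fold change of 0.38. The sum was mostly Scgb1a1, the club cell secretoglobin, at 5956 ± 1060 CPM (SD, n = 6) in air and 3508 ± 288 CPM (SD, n = 5) in exposed rats, and Cyp2f4 fell too, by 1.57 on the log2 scale. Other markers of that list rose, the mucin Muc5ac by 2.95 ± 0.62 on at most 11 counts in a library, Bpifb1 by 2.45 ± 0.51 and Agr2 by 1.08 ± 0.27. Endothelial markers, 0 of 8 higher and 6 lower, summed to 4168 to 4710 CPM and 3658 to 4013 CPM. Adipose markers, 0 of 3 tested higher and 3 lower, summed over all 7 listed to 145.04 to 169.9 CPM in air and 117.6 to 129.0 CPM in exposed rats, and Cidec, a lipid droplet protein, had the largest fall, by 1.92 on the log2 scale. Of 7 fibroblast and 5 mesothelium markers tested, 0 were called. The macrophage sums of 676 to 909 CPM and 775 to 810 CPM overlapped, with 3 of 7 markers higher and 1 lower. The part of these cell types in the levels of the 6 genes was not tested.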

How the data were processed

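RNA of 60 rats, labelled lung in every library, was measured by stranded mRNA sequencing; 3 libraries, all among the 7 labelled as outliers, had a liver profile. The authors deposited raw counts per gene symbol; per the submitters' processing notes the tools were bcl2fastq 2.19, Trimmomatic 0.35, HISAT2 2.1.0, Cufflinks, SAMtools 1.8 and HTSeq 0.11.2, and the genome build and annotation were not given in the sources used here. The symbol of 27 rows had become a calendar date, as spreadsheets can cause. The 7 libraries labelled as outliers were left out. No library pair within a group was a duplicate (smallest chi-square per degree of freedom 2.60 over 119 pairs).

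The tests used edgeR 4.0.16 under R 4.3.3 (filterByExpr with a minimum count of 10, TMM scaling, 1 robust quasi-likelihood fit of the 10 run-by-treatment groups, two-sided tests, Benjamini-Hochberg adjustment over 15995 genes, threshold 0.05). Standard errors (SE) were taken as the absolute log2 fold change over the root of F. Groups came from the labels, and further contrasts tested a linear change per doubling of dose, differences among runs and between neighbouring doses, and differences among air groups. Liver RNA was set beside each value with a profile, the mean of the 3 outlier libraries with over 1% of counts in liver markers, scaled by Alb in each library. The script was tested on simulated data. Alternatives were DESeq2 1.42.0 and its size factors in edgeR, limma 3.58.1 voom, no filter or at least 1 CPM in 10 libraries, each run alone, all air rats together, 57 libraries, liver counts subtracted, without the 5 libraries of highest Alb, and without each library in turn. Leaving out the 45 mg/m3 run was added after seeing the data.

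The 6 genes, the gene lists and the tests were chosen with earlier results of these data known. The text names the 6 genes, Alb, a set of pathway genes written down beforehand and the 3 genes most like each of the 6. It also names genes from among the up to 4 called genes of each list with the largest change at 180 mg/m3. Not all of those are named. Reads carried no molecular identifiers, so limits from counts cover counting error only.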

Additional observations from a re-analysis of the deposited data

Results flagged for a closer look

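Dixon's test was made for each gene in each group of 4 or more libraries, 54 tests that share libraries. In 8 of them a library lay far from the rest, and the test flags about 1 in 20 by chance. For Lcn2 it was exposed replicate 6 at 11.25 mg/m3, with 28.9 CPM against 16.5 to 17.8 CPM in the others. For Orm1 they were air replicate 4 at 11.25 mg/m3, with 0 CPM against 0.410 to 0.601 CPM, and air replicate 5 at 90 mg/m3, with 0.416 CPM against 0.0866 to 0.182 CPM. For Hp they were air replicate 2 at 22.5 mg/m3 (69.8 CPM against 37.7 to 46.7 CPM), exposed replicate 5 at 22.5 mg/m3 (110 CPM against 63 to 80.6 CPM) and exposed replicate 5 at 45 mg/m3 (89.8 CPM against 69.6 to 76.1 CPM). Exposed replicate 6 at 180 mg/m3 was the lowest for Lbp, with 59.7 CPM against 65.8 to 68.1 CPM, and the highest for Ptx3, with 10.7 CPM against 9.32 to 9.63 CPM.

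The exposure effect was called different among the 5 runs for Lcn2 (edgeR adjusted p = 0.0013), Ptx3 (edgeR adjusted p = 0.015) and Orm1 (edgeR adjusted p = 0.035). The call of Orm1 ended without the 45 mg/m3 run, whose air libraries held no Orm1 count (edgeR adjusted p = 0.089). It also ended with the liver trace subtracted, and it held in 41 of 53 fits that each left out a library. Ptx3 was not called without the 5 libraries of highest Alb (edgeR adjusted p = 0.17). Lcn2 was called in all 53 of those fits and under all 9 other settings.

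Libraries that the comparisons left out held levels of Orm1, Hp, Lbp or Cp above the air libraries, whereas those with a liver profile averaged 0.206 CPM of Lcn2 and 0.105 CPM of Ptx3, below every analysed library. The 3 libraries with a liver profile averaged 721 CPM of Orm1, 13050 CPM of Hp, 98.1 CPM of Lbp and 2057 CPM of Cp, where the highest air library held 0.611, 69.8, 56.5 and 253 CPM. Air replicate 6 at 45 mg/m3 held 13.1 CPM of Orm1, 214 CPM of Hp and 284 CPM of Cp, and air replicate 3 of that run held 74.6 CPM of Hp. Exposed replicate 2 at 11.25 mg/m3 held 8.27 CPM of Orm1, 178 CPM of Hp and 64.98 CPM of Lbp. Exposed replicate 1 at 180 mg/m3 held 9.14 CPM of Orm1, 162.1 CPM of Hp and 77.4 CPM of Lbp. Beside these, Alb stood at 2241, 1427 and 827 CPM in the air replicate 6, the 11.25 mg/m3 and the 180 mg/m3 library, and its part in the values was not tested.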

How the results depend on the processing

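No paired analysis was possible because the replicate numbers were given in accession order and the labels pair no libraries. All 6 genes were called at 180 mg/m3 under every alternative, and at 90 mg/m3 under all but 57 libraries (4), counting 5 of 5 with that run fitted alone, where Orm1 was not tested. Orm1 was not tested with the run alone at 11.25 and 22.5 mg/m3 either. Called genes at 11.25 mg/m3 went from 0 to 1 with the run fitted alone and to 1 with all air rats as control. At 22.5 mg/m3 they went from 5 to 3 of 5 tested with the run alone, where Hp was lost, and to 3 with 57 libraries, and at 45 mg/m3 from 5 to 2 with 57 libraries. Genes with a called difference of effect among runs went from 3 to 6 with limma voom, to 4 with DESeq2 and with the 1 CPM filter (both adding Cp) and to 2 with the liver trace subtracted, genes differing among air groups from 0 to 2 with 57 libraries, and called slopes from 6 to 3 without the 5 libraries of highest Alb, to 4 with 57 libraries and to 5 with no filter. Leaving out each library in turn gave 3 to 5 called genes at 45 mg/m3, with 3 when any 1 air library was left out, 4 to 5 at 22.5 mg/m3, 5 to 6 slopes and 2 to 4 differences among runs, and it did not change the other counts.

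Signs turned for values that were not called under the alternative. With 57 libraries Orm1 and Hp at 45 mg/m3 were -1.68 and -0.21, the Lcn2 step from 45 to 90 mg/m3 was 0.15, the 3 lower steps of Orm1 were -0.43, -3.50 and 4.36, and the first 2 steps of Hp were -0.13 and -0.90. With limma voom the Lcn2 step from 45 to 90 mg/m3 was 0.043 and the first Orm1 step -0.14. Without the 5 libraries of highest Alb the Hp step from 45 to 90 mg/m3 was -0.028. With each library left out in turn, the first Cp step ran from -0.039 to 0.12, the Hp steps from 22.5 to 45 and from 45 to 90 mg/m3 from -0.12 to 0.17 and from -0.028 to 0.14, and the Lcn2 step from 45 to 90 mg/m3 from -0.14 to 0.11. The causes were not tested. Depth limits Orm1, with 0 to 6 counts in an air library.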
